A study of Rattus norvegicus with 40 samples.

Results

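Genes of the fat cell and of fatty acid synthesis were followed in rat skeletal muscle as 5 named genes, out of the 32545 gene identifiers of the count table. They were Adipoq (ENSRNOG00000001821), Pparg (ENSRNOG00000008839), Fasn (ENSRNOG00000045636), Scd (ENSRNOG00000013552) and Srebf1 (ENSRNOG00000003463), taken by their identifiers from a given list. The libraries came from a hind limb muscle of the calf, gastrocnemius, and a fore limb muscle, triceps, of male rats of the outbred Wistar strain. At 20 months of age 10 animals were sampled, and at 22 months 10 other animals, with 1 library per muscle and animal, so that 40 libraries fell into 4 groups of 10. Animals are named here by age and by the replicate number of their libraries. For its gastrocnemius data the study places these ages in its early sarcopenic and sarcopenic phases, sarcopenia being the loss of muscle mass and function with age. The labels list no genotype or treatment for any group. Since each animal was sampled at 1 age, an age difference here is a difference between animals.

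Adipoq encodes adiponectin, a hormone secreted almost entirely by adipocytes, the cells that store fat. Pparg encodes PPARgamma, the nuclear receptor that drives adipocyte differentiation and turns on many adipocyte genes, Adipoq among them. Fasn encodes fatty acid synthase, which builds palmitate from malonyl-CoA, and Scd encodes stearoyl-CoA desaturase, which places a double bond into saturated fatty acids. Srebf1 encodes SREBP-1, a transcription factor that responds to insulin and activates genes of fatty acid synthesis, including Fasn and Scd. In muscle, adipocytes lie between fibre bundles, whereas Srebf1 is also transcribed in the muscle fibres themselves.

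Total counts ranged from 10983887 to 68580194 per library, with group medians between 16966393 and 26775961. Levels are given as CPM, a gene's counts relative to the total of its library after TMM scaling (trimmed mean of M values), and they are compared between groups for 1 gene at a time, never between genes. All 5 genes passed the filter on low counts, 1 CPM in at least 10 libraries, in every comparison. Pparg rested on the fewest counts, between 28 and 333 per library, and Srebf1 on between 2061 and 19617. The table pairs no identifier with a symbol, so markers of muscle fibres, adipocytes or other cells were not analysed here and the tissue labels could not be checked against them. In whole muscle, fewer cells of a type and less RNA per cell cannot be told apart. The rat genome also holds Scd2, a close relative of Scd on the same chromosome, and how reads shared by both were counted is not given in the sources used here, which leaves the level of Scd less certain.

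Promoter sequence is shown for context, because some of these genes moved together between animals and others differed between the muscles. RefSeq start sites on the GRCr8 build were matched by symbol for 4 of the 5 genes and gave 6 windows of 250 bases before a start site, with 2 start sites each for Pparg and Srebf1. Fasn had no entry. Both Pparg windows, the Scd window and the downstream Srebf1 window lay wholly inside the annotated gene, and so did 75 bases of the Adipoq window. The window before the upstream start of Srebf1, on the minus strand at chr10:45529165-45529414, lay wholly outside the annotated gene and reads as follows, with a match to the CCAAT box in capitals.
Srebf1 upstream start: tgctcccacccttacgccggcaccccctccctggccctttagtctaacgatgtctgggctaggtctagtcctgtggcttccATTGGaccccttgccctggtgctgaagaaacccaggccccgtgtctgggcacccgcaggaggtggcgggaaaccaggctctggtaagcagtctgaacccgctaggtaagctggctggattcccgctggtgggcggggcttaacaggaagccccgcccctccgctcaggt

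The letters of 4 motifs of factors that can act on such genes were searched for on both strands of the 6 windows. The CCAAT box (CCAAT, or ATTGG on the other strand), which the factor NF-Y binds, was present in 34.0% of all 33469 rat promoter windows of this length. The E-box CACGTG was present in 5.59%, the sterol element core CACCCCA in 5.9% and the nuclear receptor half-site AGGTCA in 14.1%. Only the CCAAT box had matches in these windows, 6 in all, and no match overlapped another. The other 5 matches are shown with 10 bases on each side and the matched bases in capitals, Adipoq and Srebf1 on the minus strand and Pparg on the plus strand.
Adipoq, chr11:91240224-91240248: gagctcactcATTGGctactggccc
Adipoq, chr11:91240197-91240221: actgggctggCCAATggtgagctgg
Pparg downstream start, chr4:150154659-150154683: acagtgccagCCAATtcaggcctga
Srebf1 downstream start, chr10:45519127-45519151: gcggggccttATTGGggcgcggcgc
Srebf1 downstream start, chr10:45519104-45519128: gcggctgctgATTGGccatgtgcgc
Counts per gene do not show which start site was used, and the upstream Pparg window and the Scd window held none of these letters.

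Whether the muscles differ was asked within each age, by comparing gastrocnemius with triceps of the same 10 animals. Scd, the desaturase, was 4.19-fold higher in gastrocnemius than in triceps at 20 months and 3.73-fold higher at 22 months. Srebf1, the activator of lipid synthesis genes, went the other way, being 2.97-fold lower in gastrocnemius at 22 months. The adipocyte genes Adipoq and Pparg and the synthase Fasn did not pass the test at either age. With edgeR's quasi-likelihood test and an adjusted p under 0.01, 1 of the 5 genes was called at 20 months, beside 3.76% of the 12426 genes tested. These fits take no account of the animal, and with the animal as a block 2 of the 5 were called at 20 months, Scd and Srebf1, beside 506 of the 12426 genes. At 22 months 2 of the 5 were called, beside 20.3% of 12565 genes. For single directions, 2.39% of genes were called higher in gastrocnemius at 20 months and 10.5% at 22 months, and 1.37% and 9.82% were called lower. The median of the 5 log2 differences was 0.41 at 20 months and 0.13 at 22 months, against 0.00433 and 0.00622 over all genes tested. These shares describe a list whose members were chosen with earlier results known.

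**Figure D1:**
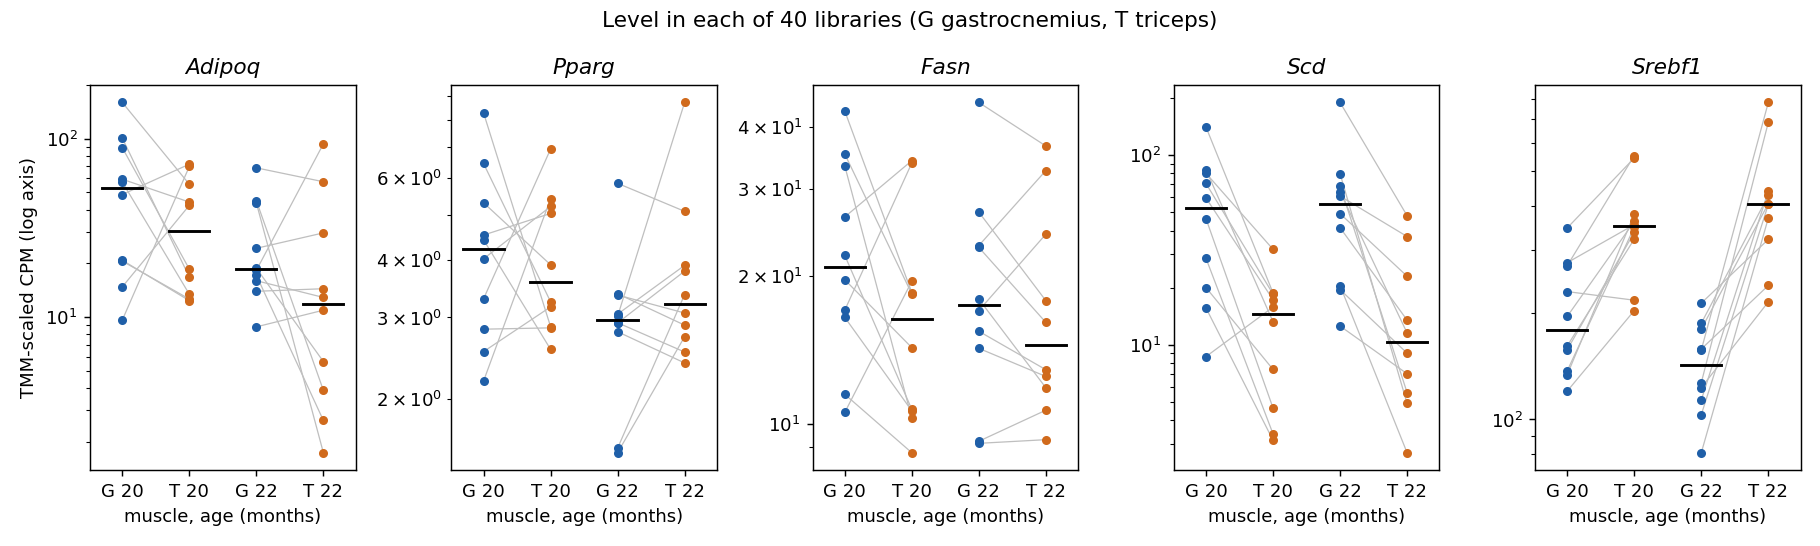
TMM-scaled CPM (log axis) of the 5 genes in each of the 40 libraries, by muscle (G gastrocnemius, T triceps) and age in months. Points are libraries, grey lines join the muscles of an animal and black bars are group medians. For Srebf1 at 22 months the highest gastrocnemius library, at 213 CPM, sits just under the lowest triceps library, at 214 CPM.

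Scd in gastrocnemius at 20 months ran from 8.66 CPM over a median of 52.8 to 140.4, while triceps of the same animals ran from 3.14 over 14.5 to 31.8. Means were 55.3 ± 40.4 in gastrocnemius and 13.4 ± 9.03 in triceps (SD, n = 10 each). The groups overlapped, but gastrocnemius was the higher muscle in 9 of 10 animals. The exception was animal 6, with 8.66 CPM in gastrocnemius and 15.8 in triceps. The log2 difference of 2.07 ± 0.47 (SE) had an adjusted p of 0.00784 by edgeR's quasi-likelihood test. The size of the difference did not rest on 1 animal, staying between 1.86 and 2.23 whichever was left out. Its adjusted p was close to the threshold, and rose to between 0.0104 and 0.0258 without any 1 of animals 1 to 5 and 7 to 10, while without animal 6 it was 0.00644. With the animal as a block the difference was 2.02 ± 0.33 with an adjusted p of 0.0025, and it was called whichever animal was left out, at adjusted p from 6.08e-05 to 0.00825.

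At 22 months Scd ran from 12.5 CPM over a median of 54.9 to 189 in gastrocnemius and from 2.70 over 10.3 to 47.9 in triceps. Gastrocnemius was the higher muscle in all 10 animals, between 1.63-fold in animal 9 and 16.2-fold in animal 1, although the groups again overlapped. The fitted log2 difference was 1.90 ± 0.50 (SE, edgeR adjusted p = 0.00584). Leaving out 1 animal at a time kept the difference between 1.76 and 2.13. Without animal 1, 2, 3 or 10 the adjusted p rose past the threshold, to 0.018 at most, whereas with the animal as a block all 10 fits that left 1 animal out kept it. The change of the muscle difference of Scd with age was -0.17 on the log2 scale, with a 95% interval from -1.59 to 1.24 (edgeR, adjusted p = 0.999).

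Srebf1 at 20 months ran from 120.2 CPM over a median of 178 to 346 in gastrocnemius and from 203 over 351 to 554 in triceps. Triceps was the higher muscle in 9 of 10 animals, and in animal 10 the muscles lay close together, at 229 CPM in gastrocnemius and 217 in triceps. The groups overlapped, and the log2 difference of -0.83 ± 0.20 (SE) did not pass the threshold without a block (edgeR adjusted p = 0.0123). With the animal as a block it did, at -0.85 ± 0.13 and an adjusted p of 0.00207, and so it did in each block fit that left out 1 animal. Without the block it was called only when animal 8 was left out, at 0.00977.

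At 22 months the levels of Srebf1 in the 2 muscles did not overlap, by a narrow margin. Gastrocnemius ran from 80.6 CPM over a median of 142 to 213, and triceps from 214 over 404 to 782. Such a separation was seen for 3.87% of the genes tested at 22 months and for 0.402% at 20 months. Triceps was the higher muscle in all 10 animals, and the log2 difference was -1.57 ± 0.22 (SE, edgeR adjusted p = 1.13e-05). It was called whichever animal was left out. From 20 to 22 months the muscle difference moved by -0.74 ± 0.31 on the log2 scale, which had an unadjusted p of 0.0205 and an adjusted p of 0.999 (edgeR, all 40 libraries), so a change of the muscle difference with age was not established. Among the 12980 genes of that test 0 were called, 3% had an unadjusted p under 0.05, and Srebf1 was the only one of the 5 genes among them. DESeq2 and limma-voom also called 0 genes.

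The remaining 3 genes gave differences between muscles that did not pass the test. Adipoq, the adipocyte hormone, was 0.72 ± 0.47 (SE) higher in gastrocnemius at 20 months on the log2 scale and 0.23 ± 0.57 at 22 months, with edgeR adjusted p of 0.368 and 0.781. With the animal as a block the difference at 22 months was 0.82 ± 0.54 (adjusted p = 0.261), with limma-voom 0.82 (adjusted p = 0.289) and without animal 9 0.89 (adjusted p = 0.231), and the mean over animals of log2 CPM in gastrocnemius minus triceps was 1.01. Gastrocnemius held the higher level in 7 of 10 animals at the younger and in 6 of 10 at the older age. Between single animals the contrast went both ways, from -2.35 in animal 9 to 4.59 in animal 7 in log2 CPM at 22 months. Fasn gave 0.41 ± 0.29 and 0.13 ± 0.29 (adjusted p 0.394 and 0.759), and Pparg 0.12 ± 0.24 and -0.35 ± 0.24 (adjusted p 0.8 and 0.284). For Pparg the 95% interval at 22 months ran from -0.85 to 0.15, and for Fasn from -0.47 to 0.73, and differences within these intervals are not excluded.

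**Figure D2:**
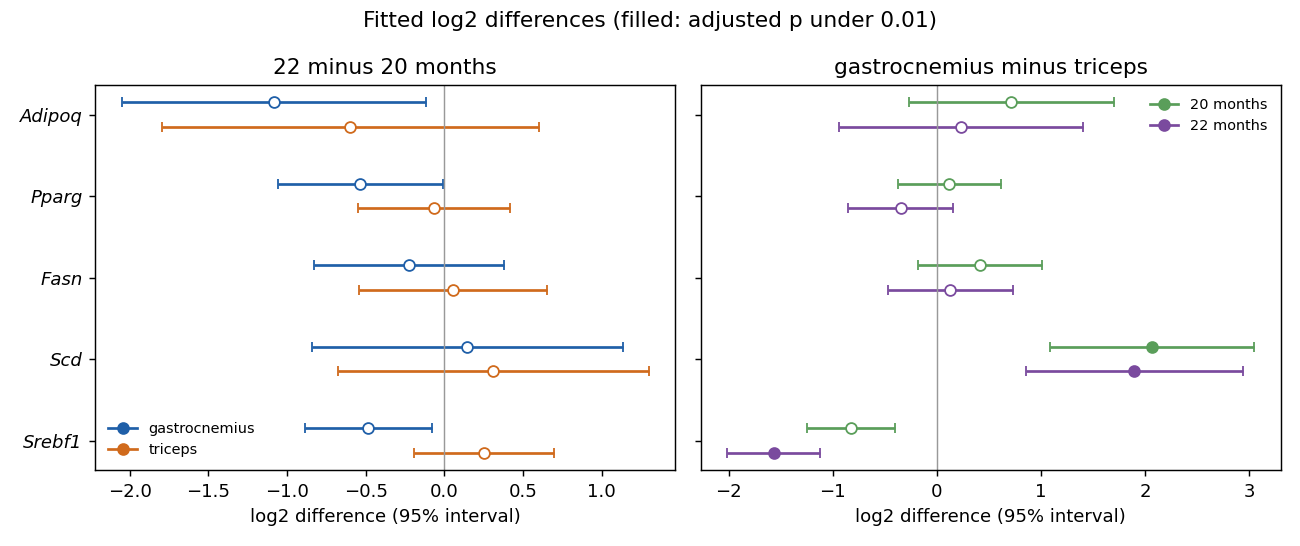
Fitted log2 differences with 95% intervals for age (22 minus 20 months, left) and muscle (gastrocnemius minus triceps, right), from edgeR fits on 20 libraries each. Filled symbols mark an adjusted p under 0.01, which Scd reached at both ages and Srebf1 at 22 months, and every interval of an age difference has an open symbol.

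Age was compared within each muscle, 22 minus 20 months. For gastrocnemius the study places these ages in its sarcopenic and early sarcopenic phases, and it gives no phase for triceps. None of the 5 genes was called with age in either muscle. In gastrocnemius Adipoq had a mean of 58.1 ± 47.4 CPM at 20 months and 27.5 ± 18.9 at 22 months (SD, n = 10), and in triceps 35.8 ± 24.1 and 23.3 ± 30.0. In gastrocnemius edgeR called 0 of 12659 genes (0%) and in triceps 0 of 12345 (0%), while unadjusted p-values under 0.05 were found for 10.3% and 8.78% of genes. DESeq2 called 1 gene in gastrocnemius, none of the 5 described here, and 0 in triceps, and limma-voom called 0 in both.

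In gastrocnemius Adipoq ran from 9.63 CPM over a median of 53.0 to 159.8 at 20 months and from 8.83 over 18.6 to 68.7 at 22 months. The groups overlapped over most of their range, with 3 animals at 20 months above every animal at 22 months. The log2 difference was -1.08 ± 0.47 (SE), with an unadjusted p of 0.03 and an adjusted p of 0.444 by edgeR. Over all genes tested, 0.213% had a log2 difference at least as large in size. Pparg gave -0.53 ± 0.25 (unadjusted p = 0.0459, adjusted p = 0.478, edgeR), from a median of 4.21 CPM at 20 months to 2.97 at 22 months. Srebf1 gave -0.48 ± 0.19 (unadjusted p = 0.0211, adjusted p = 0.421, edgeR), from a median of 178 to 142 CPM. So 3 of the 5 genes had an unadjusted p under 0.05, all on the lower side, where 5.42% of all genes lay, and none passed after adjustment.

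For Fasn and Scd, the enzymes, the age differences in gastrocnemius had unadjusted p-values of 0.449 and 0.761 (edgeR). Fasn had a mean of 23.5 ± 10.8 CPM at 20 months and 20.1 ± 10.5 at 22 months (SD, n = 10), a log2 difference of -0.22 ± 0.29 (SE, edgeR adjusted p = 0.79). Scd had 55.3 ± 40.4 and 60.5 ± 50.7, a log2 difference of 0.15 ± 0.47 (adjusted p = 0.916), and without animal 4 of the 22-month group, whose library held 189 CPM, the difference was -0.25. The median of the 5 differences was -0.48, against 0.01 over all genes tested.

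Triceps gave no member with an unadjusted p under 0.05 for age. Adipoq in triceps ran from 12.4 CPM over a median of 30.5 to 72.0 at 20 months and from 1.74 over 11.9 to 93.7 at 22 months. Both the lowest and the highest of the 20 values thus belonged to 22-month animals, and the log2 difference was -0.60 ± 0.58 (SE, edgeR adjusted p = 0.803). Without animal 9 at 22 months it was -1.21 (adjusted p = 0.596) and with limma-voom -1.16 (adjusted p = 0.588). Srebf1 had a mean of 362 ± 115 CPM at 20 months and 429 ± 179 at 22 months (SD, n = 10), a log2 difference of 0.25 ± 0.21 (adjusted p = 0.767). Scd gave 0.31 ± 0.48, Fasn 0.06 ± 0.29 and Pparg -0.07 ± 0.23, with edgeR adjusted p from 0.88 to 0.975.

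Ordered by their mean log2 CPM, the 4 groups gave a different sequence for each gene. For Adipoq the order was gastrocnemius at 20 months, triceps at 20 months, gastrocnemius at 22 months and triceps at 22 months, and no difference between neighbours passed a test (triceps at 20 against gastrocnemius at 22 months, two-sided permutation test, p = 0.48). Pparg was highest in gastrocnemius at 20 months and lowest in gastrocnemius at 22 months, again with no difference between neighbours that passed. Fasn was highest in gastrocnemius at 20 months and lowest in triceps at 20 months, likewise. For Scd both gastrocnemius groups stood above both triceps groups, and the step between them, gastrocnemius at 20 against triceps at 22 months, was 1.87 in log2 CPM (two-sided permutation test, p = 0.0057, adjusted p = 0.0114 over 2 such tests). For Srebf1 both triceps groups stood above both gastrocnemius groups, with triceps at 22 months highest and gastrocnemius at 22 months lowest, and its middle step was the muscle difference at 20 months given above.

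Adipoq and Scd differed between animals of the same group far more than most genes. The coefficient of variation (SD over mean of CPM) of Adipoq was 81.7% in gastrocnemius at 20 months, 68.7% in gastrocnemius at 22 months, 67.3% in triceps at 20 months and 129% in triceps at 22 months. The median over the 12980 genes measured in all libraries lay between 17.0% and 18.6%, and between 0.493% and 2.97% of genes varied as much as Adipoq. In triceps at 22 months the highest animal had 53.9 times the Adipoq level of the lowest, with 29 counts behind the lowest value of a library and 3571 behind the highest. Scd varied by 67.4% to 93.6%, Fasn by 46.0% to 52.2% and Pparg by 35.2% to 49.3%. By this coefficient Srebf1 varied least of the 5, by 28.8% to 41.8%, and between 8.57% and 21.7% of genes varied as much. Among genes with a mean within 2-fold of its own, 1.89% to 12.8% varied as much as Srebf1. For Pparg this share of genes of similar level was 6.29% to 18.6%. These are descriptions of spread, with no test of a difference between genes.

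**Figure D3:**
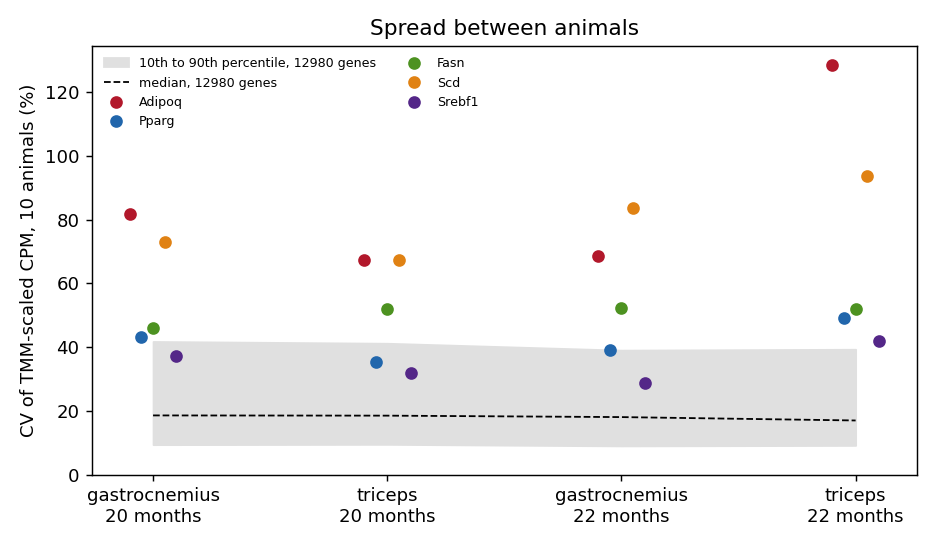
Coefficient of variation (%) of TMM-scaled CPM over the 10 animals of each group, for the 5 genes (coloured points) and for all 12980 genes (dashed line, median; grey band, 10th to 90th percentile). Adipoq reached 129% in triceps at 22 months, where the median gene varied by 17.0%.

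Adipoq, Pparg and Fasn rose and fell together from animal to animal, whereas no pair with Scd or Srebf1 passed the test. Correlations of log2 CPM were computed for the 10 pairs of genes within each muscle over 20 animals, 20 relations in all, with two-sided permutation tests of 100000 resamples and Benjamini-Hochberg adjustment. In gastrocnemius Adipoq and Pparg had a Pearson r of 0.884 (p = 1e-05, the smallest these permutations can give, adjusted p = 0.0001) and a Spearman rho of 0.827 (p = 2e-05). Leaving out the 2 animals farthest from the median of Adipoq gave r = 0.833, and r was 0.952 within the 20-month and 0.744 within the 22-month animals. Animals with more adiponectin RNA in this muscle thus tended to have more PPARgamma RNA, at each age.

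Pparg and Fasn in gastrocnemius gave r = 0.836 (p = 1e-05, adjusted p = 0.0001, permutation test) and rho = 0.829 (p = 2e-05), with 0.80 without 2 animals, 0.771 at 20 months and 0.939 at 22 months. Adipoq and Fasn gave r = 0.734 (p = 0.00027, adjusted p = 0.0018) and rho = 0.702 (p = 0.0008), with 0.812 without 2 animals, 0.726 at 20 months and 0.769 at 22 months. All 3 relations thus had the same sign within both ages.

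In triceps the same 3 pairs passed an adjusted p of 0.05, with smaller r. Adipoq and Pparg gave r = 0.637 (p = 0.00265, adjusted p = 0.0106, permutation test) and rho = 0.636 (p = 0.00318), with 0.682 without 2 animals, 0.679 at 20 months and 0.648 at 22 months. For Adipoq and Fasn r was 0.602 (p = 0.00536, adjusted p = 0.0179) and rho 0.606 (p = 0.00538), with 0.571 without 2 animals, 0.822 at 20 months and 0.641 at 22 months. Pparg and Fasn gave r = 0.665 (p = 0.00138, adjusted p = 0.0069) but a rho of only 0.460 (p = 0.0421, adjusted p = 0.12). Without 2 animals that relation had r = 0.499 (p = 0.0344, adjusted p = 0.115, permutation test) and did not pass. Within ages its r was 0.759 at 20 months and 0.607 at 22 months. Adipoq and Fasn without 2 animals did not pass either, at an adjusted p of 0.0568. Whether the correlations differ between muscles was not tested.

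No pair that included Scd or Srebf1 passed in either muscle. The strongest, Fasn with Scd in gastrocnemius, had r = 0.491 (p = 0.0277, adjusted p = 0.0791) and rho = 0.435 (p = 0.0568, permutation tests), and fell to 0.247 without 2 animals. Adipoq with Scd in triceps followed, with r = 0.472 (p = 0.0356, adjusted p = 0.089) and rho = 0.409 (p = 0.0729). Within ages that r was 0.0792 at 20 months and 0.788 at 22 months (p = 0.0075, adjusted p = 0.0592 for the latter, permutation test). In gastrocnemius Adipoq and Scd had r = 0.410 and rho = 0.498 (p = 0.0283, adjusted p = 0.0943 for rho, permutation test). Srebf1 and Fasn, an activator and one of its known target genes, had r = -0.12 in gastrocnemius and -0.18 in triceps (adjusted p 0.709 and 0.593, permutation tests), and Srebf1 and Scd 0.0224 and 0.236 (adjusted p 0.936 and 0.488). Within ages, Srebf1 and Fasn in gastrocnemius had r = 0.185 at 20 months and -0.733 at 22 months (p = 0.0148, adjusted p = 0.0592 for the latter, permutation test). In triceps r was -0.688 at 20 months (p = 0.0232, adjusted p = 0.0773, permutation test) and 0.212 at 22 months. In gastrocnemius Srebf1 and Scd had r = 0.576 at 20 months and -0.62 at 22 months (p = 0.0817 and p = 0.0568, permutation tests), and the difference between these values was not tested.

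**Figure D4:**
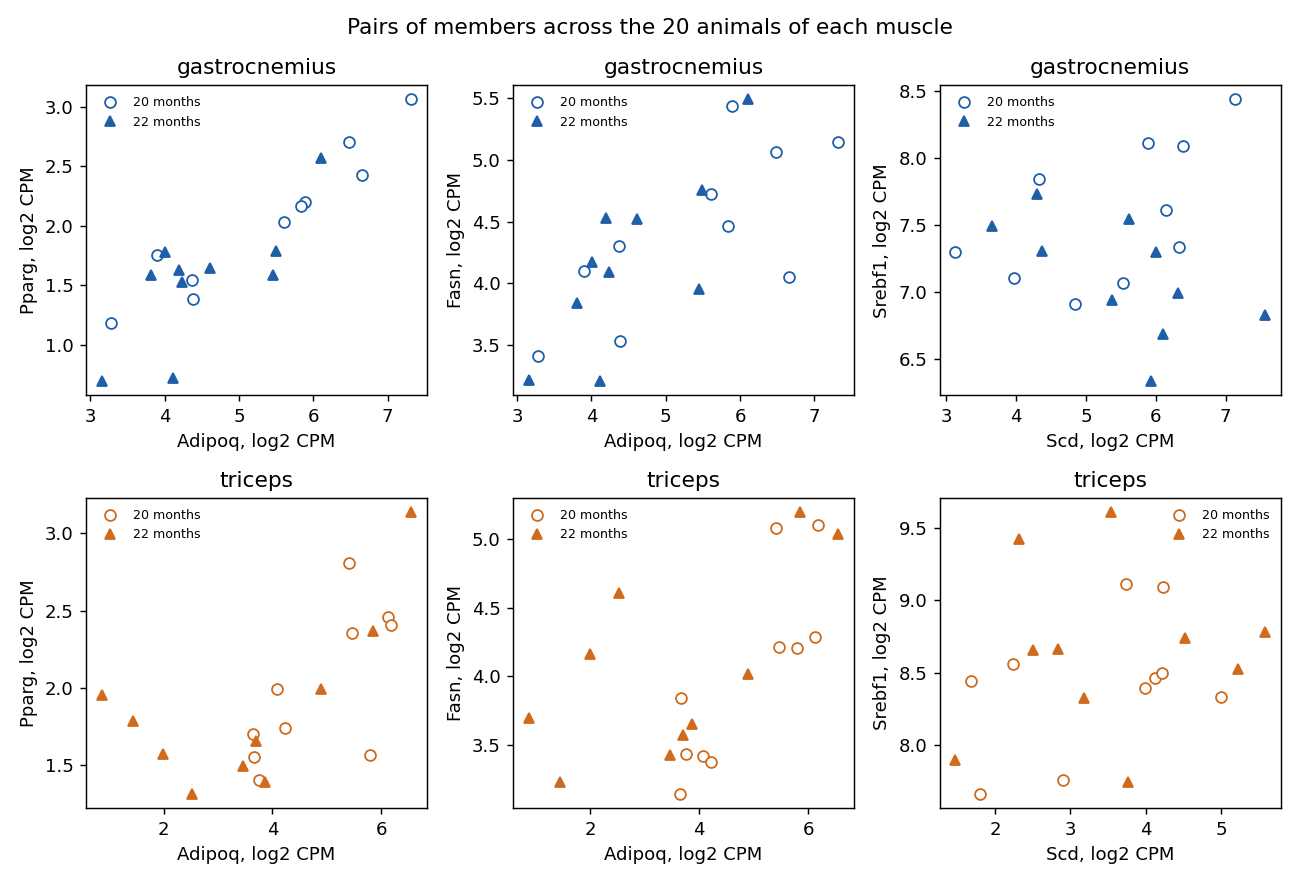
Log2 CPM of pairs of genes over the 20 animals of each muscle (upper row gastrocnemius, lower row triceps; open circles 20 months, triangles 22 months). Adipoq rises with Pparg and with Fasn in both muscles, with r of 0.884 and 0.734 in gastrocnemius and 0.637 and 0.602 in triceps, while for Scd and Srebf1 no r over both ages passed.

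Whether an animal high in 1 muscle was high in the other was asked for each gene. Across the 20 animals the levels of a gene in gastrocnemius and triceps gave r = 0.124 for Adipoq, 0.0632 for Pparg, 0.466 for Fasn, 0.527 for Scd and 0.143 for Srebf1, and 0 of the 5 relations passed after adjustment (permutation tests, adjusted p from 0.0851 to 0.791). Unadjusted p-values were under 0.05 for Scd (p = 0.017, rho = 0.514 with p = 0.0213) and Fasn (p = 0.0384, rho = 0.495 with p = 0.0281). Without the 2 most distant animals r was 0.674 for Scd (adjusted p = 0.0128, permutation test) and 0.356 for Fasn (adjusted p = 0.367). Within ages, Fasn gave r = 0.146 at 20 months and 0.816 at 22 months (p = 0.00345, adjusted p = 0.0173 over the 5 genes, permutation test), and Scd 0.504 and 0.552, neither of which passed. Adipoq illustrates the spread between muscles of an animal. At 20 months animal 6 had 9.63 CPM in gastrocnemius, the lowest of its group, and 69.9 in triceps, and at 22 months animal 9 had 18.3 and 93.7.

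Srebf1 in gastrocnemius moved with a property of the whole library, the share of its counts taken by the 50 most abundant genes. This relation was examined after the data had been seen, for the 5 genes in both muscles, 10 relations in all. How many of all genes moved with the share was not examined, so the relation is not shown to be particular to Srebf1. With group means taken off, 1188 of 12979 other genes had r over 0.5 with Srebf1 over 40 libraries, and 757 under -0.5. The CPM used here is also divided by the TMM factor of the library. This factor was 1.29 at the lowest gastrocnemius share, 33.7%, and 0.856 at the highest, 47.4%. How much of the relation comes from this scaling was not tested. In gastrocnemius r was 0.878 (p = 1e-05, the smallest the permutations can give, adjusted p = 0.0001) and rho 0.887 (p = 1e-05), with 0.842 without 2 animals, 0.830 at 20 months and 0.903 at 22 months. In triceps r was 0.256 (p = 0.277, adjusted p = 0.461, permutation test) and rho 0.0887 (p = 0.711). None of the other 4 genes passed over both ages, with adjusted p from 0.105 to 0.868. Within the 22-month gastrocnemius libraries, however, Fasn (r = -0.89, p = 0.00021) and Pparg (r = -0.72, p = 0.0101, unadjusted permutation tests) went down as the share went up. Without 2 animals Fasn over both ages gave -0.53 (p = 0.023). The share itself was 42.3 ± 3.41% in gastrocnemius at 20 months and 39.1 ± 4.17% at 22 months, while triceps had 44.9 ± 2.98% and 43.9 ± 1.37% (SD over 10 libraries). The share was lowest in gastrocnemius at 22 months, where Srebf1 was lowest. It was highest in triceps at 20 months, whereas Srebf1 was highest in triceps at 22 months.

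**Figure D5:**
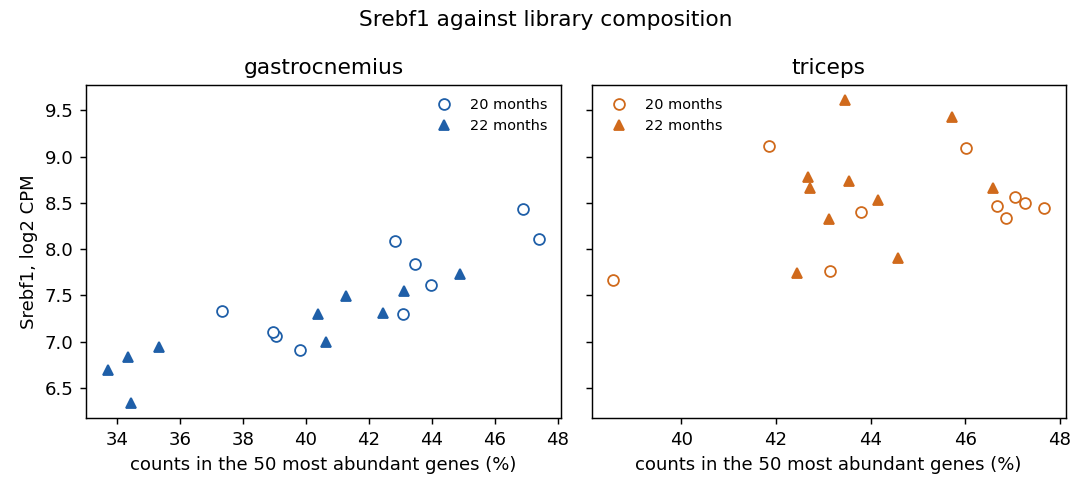
Log2 CPM of Srebf1 against the percentage of a library's counts in its 50 most abundant genes, for the 20 libraries of gastrocnemius (left) and of triceps (right), with open circles for 20 and triangles for 22 months. The horizontal ranges differ between panels. In gastrocnemius the points rise along a line (r = 0.878), and in triceps they do not (r = 0.256).

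With this share as a covariate, the log2 age difference of Srebf1 in gastrocnemius was -0.15 ± 0.12 (SE, edgeR adjusted p = 0.75), less than without it. The muscle difference was -0.64 ± 0.18 at 20 months (adjusted p = 0.0391) and stayed called at 22 months, at -1.17 ± 0.24 (adjusted p = 0.0021). For Scd the covariate left the difference at 20 months called, at 2.36 ± 0.49 (adjusted p = 0.00683), but at 22 months reduced it to 0.82 ± 0.53 (adjusted p = 0.291). The covariate and the muscle contrast share information, since the mean share at 22 months was 39.1% in gastrocnemius and 43.9% in triceps. Between muscles, the fit with the covariate called 223 of 12426 genes at 20 months and 1078 of 12565 at 22 months. Without it 467 and 2552 were called.

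The genes with patterns most like those of Adipoq and Scd were sought among the other 12979 genes, by the Pearson r of log2 CPM over the 40 libraries after the mean of each group was taken off. Closest to Adipoq was ENSRNOG00000015086, with r = 0.971. Its means in gastrocnemius were 24.3 ± 19.3 CPM at the younger and 11.2 ± 6.61 CPM at the older age, and in triceps 16.3 ± 11.7 and 10.1 ± 14.1 CPM (SD over 10 animals), the same order of group means as for Adipoq. In all, 21 genes had an r over 0.8 with Adipoq, among which Pparg, ranked 38, and Fasn, ranked 48, were not found. Scd had 0 genes over 0.8, and its closest was ENSRNOG00000005007 with r = 0.653. That gene had means of 6.34 and 6.98 CPM in gastrocnemius at 20 and 22 months and of 5.61 and 6.78 CPM in triceps. Adipoq ranked 30 among the genes most like Scd, with r = 0.506. The points of these correlations share libraries and the muscles of an animal, and they are given as descriptions.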

How the data were processed

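RNA was isolated with miRNeasy, and RNA carrying a polyA tail was sequenced from TruSeq libraries. The values are read counts per gene, which the authors deposited as 1 table without normalization. The submitters' processing notes name CASAVA 1.8, STAR 2.3.0e, HTSeq and the Rnor_6.0 build, with no roles. The study's methods describe kallisto for its rat values, another way of counting, so levels here need not equal the study's. The study calls its rat reads unstranded, so reads of a gene and of an overlapping antisense gene cannot be told apart. The annotation release behind the HTSeq counts is not given in the sources used here. Of 32545 rows, 9545 held no count.

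Statistics were computed with edgeR 4.0.16 under R 4.3.3. Genes with at least 1 CPM in 10 libraries were kept (12980 on all 40 libraries), library sizes were TMM-scaled, and the two-sided quasi-likelihood F-test was fitted on all kept genes with Benjamini-Hochberg adjustment and a threshold of 0.01. Each comparison used its own 20 libraries, and the difference of age effects all 40. Log2 CPM had a prior count of 2. Correlations and differences of single values were tested with 100000 resamples. Alternatives were DESeq2 1.42.0, limma-voom (limma 3.58.1), library totals, no filter, an adjusted p under 0.05, a block, each animal left out and, chosen after seeing the data, the block with each animal left out and the share of the 50 most abundant genes as a covariate.

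Both muscles of an animal carry its number in the labels, from which the pairing comes. Deviations from group means correlated between the muscles of an animal with a median r of 0.158 (-0.33 to 0.632), over 0.1 in 12 of 20 pairs. Animals of different ages have different animal numbers and share only a replicate number. Libraries are replicates by these animal numbers, and the least different pair within a group had a chi-square of 11.4 per gene, above sampling noise. On simulated counts, edgeR recovered 87.5% of genes changed by 1 on the log2 scale and 96% of those changed by 2 for age in gastrocnemius over 12581 genes, and 86.7% and 100% for muscle at 22 months over 12497 genes. The changed genes were drawn at random from all genes kept. These shares do not carry over to genes that vary as much as Adipoq and Scd. In the data, the age difference of Adipoq in gastrocnemius, -1.08, had an edgeR adjusted p of 0.444.

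The 5 genes and the lists were chosen with earlier results of these data known. All 5 were named in every comparison by rule. Of 47357 genes in the annotation at hand, 0 carried an Ensembl identifier, so wider lists of adipocyte and lipid genes, markers of other cells, and symbols of the most similar genes were not analysed here. By rule, those similar genes were given by identifier for Adipoq and Scd. Sequences came from RefSeq on GRCr8, matched by symbol. No coordinate was carried between builds.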

Additional observations from a re-analysis of the deposited data

Results flagged for a closer look

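Each gene was examined in each group of 10 animals for a library far from the rest, 20 sets in all. Chance flags about 5% of sets where values are normally distributed and the sets are independent. That rate need not hold here, because CPM was used in place of log2 CPM and Adipoq, Pparg and Fasn rose and fell together. A gap to the nearest library that was large against the group's range, by the 95% limit of Dixon's test for 10 samples, was found in 4 sets. In gastrocnemius at 22 months, animal 4 stood above the others for Pparg (5.84 CPM, next 3.38), for Fasn (44.9 CPM, next 26.9) and for Scd (189 CPM, next 79.7). The same library also held the highest Adipoq of its group, 68.7 CPM, without passing the limit. In triceps at 22 months, animal 9 stood above the others for Pparg, with 8.73 CPM against 5.08 in the next, and also held the highest Adipoq, 93.7 CPM. Without animal 4 the log2 age differences in gastrocnemius went from -1.08 to -1.34 for Adipoq, from -0.53 to -0.68 for Pparg, from -0.22 to -0.44 for Fasn and from 0.15 to -0.25 for Scd. Without animal 9 those in triceps went from -0.60 to -1.21 for Adipoq and from -0.07 to -0.30 for Pparg.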

How the results depend on the processing

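With age, 0 of the 5 genes were called in either muscle under every alternative run, the block of shared replicate numbers included. At 20 months the count of the 5 genes called between muscles was 1 in the chosen fit and 2 with DESeq2 (Scd and Srebf1). It was 0 with limma-voom (Scd adjusted p = 0.0137), 2 at an adjusted p under 0.05 and 2 with the replicate block. In that order these settings called 467, 878, 431, 1203 and 506 of the 12426 genes tested. Leaving out each animal gave 0 to 1 without the block and 2 with it, beside 206 to 525 and 203 to 707 of all genes. At 22 months 2 of the 5 were called, and 1 with the top 50 share as a covariate, with 1 to 2 when each animal was left out. The chosen fit called 2552 of all genes, the covariate fit 1078, and fits without the block that left out 1 animal 1880 to 2493. The block changed no other call, though with a block of replicate numbers, which pair no animals across ages, Adipoq with age in triceps was -1.24 against -0.60. That covariate also reversed uncalled differences: Scd with age in gastrocnemius to -0.17, Fasn with age in triceps to -0.055, and between muscles Pparg at 20 months to -0.14, Adipoq at 22 months to -0.44 and Fasn at 22 months to -0.75. The change of the muscle difference of Adipoq with age was 0.29 with limma-voom and 0.19 with the replicate block, against -0.48. Centring within age turned the correlation of Adipoq with Srebf1 in gastrocnemius to -0.14 and that of Adipoq between the muscles to -0.035. Leaving out single animals reversed only uncalled differences. With age these ranged from -0.25 to 0.41 for Scd in gastrocnemius (below 0 without animal 4 at 22 months), and in triceps from -0.30 to 0.037 for Pparg (above 0 without animal 10 at 20 months), -0.11 to 0.22 for Fasn (6 of 20 fits) and -0.032 to 0.55 for Scd (without animal 4 at 22 months). Between muscles they ranged from -0.088 to 0.26 for Pparg at 20 months (below 0 without animal 5, and with the block at -0.057, -0.10 and -0.011 without animals 4, 5 and 9) and from -0.0019 to 0.89 for Adipoq at 22 months (without animal 2). The age change of the muscle difference ranged from -0.78 to 0.18 for Adipoq and -0.34 to 0.059 for Scd. The cause of these shifts was not tested, beyond the fewer samples. Pairs of genes passing were 6, 6 with a prior count of 0.5, 7 with library totals (Fasn with Scd in gastrocnemius added) and 7 centred within age (Adipoq with Scd in triceps added). Library totals in place of TMM moved the median of all genes by 0.13 for age in gastrocnemius and by 0.10 and 0.19 for muscle at 20 and 22 months. Counting error was not separated from the spread between animals for these genes.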
